A study of Homo sapiens with 2 samples.

Results

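The genes described here are 48 transcription factor genes of embryonic development that lie outside the HOX clusters: 7 PAX, 8 LHX, 7 NKX, 6 IRX, 6 DLX, 2 EN and 2 OTX genes, SIX2, SIX3 and SIX6, all of the homeobox or paired-box kind, and 7 TBX genes. They were chosen by name, and each was represented by the CpG dinucleotides within 5 kb on either side of its transcription start site (TSS) that had more than 5 reads in both cell lines. All 48 genes were found among 20163 annotated protein-coding genes, and their windows held 21754 such CpG dinucleotides of 24454751 in the nuclear genome. At least 90.8% of the listed CpG dinucleotides of every window passed this minimum, and no window overlapped another.

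The study set OCI-AML3, a human acute myeloid leukemia (AML) cell line that is heterozygous for the R882C missense mutation of the DNA methyltransferase DNMT3A, against AML5, an AML cell line without a DNMT3A mutation whose sample label reads OCI-AML5. Neither line received a treatment, and they are different lines, so the mutation cannot be told apart from any other difference between them. Each line was measured by whole-genome bisulfite sequencing of 1 library, without replicates, and a methylation level is the percentage of calls at a CpG dinucleotide that were methylated. OCI-AML3 had 902802339 such calls in total, and AML5 had 894828667. Intervals and tests below therefore compare these 2 libraries and cover the sampling of reads only, not the spread between cultures. RNA was not measured in these files, so the labelled cell type could be looked at only through methylation. Of 5 blood genes, only SPI1, a myeloid regulator, had a start near 0 in both lines, at 0.0718% and 0.133%. The myeloid gene CD33 had 13.1% and 25.2%, LYZ 20.4% and 1.72%, PTPRC 41.7% and 50% over 2 CpG dinucleotides, and MPO 98.3% and 94.0%. Starts of genes of other cell types were at 83.0% and 93.4% for CD3E and 20.7% and 53.1% for EPCAM.

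Homeobox and T-box proteins bind DNA and set the identity of tissues in the embryo, and many of their genes are silent in blood cells. Many of the start sites lie in long CpG-rich stretches. In stem cells and many normal tissues such stretches are held inactive by Polycomb proteins and stay largely free of DNA methylation, and in many tumors they acquire it. DNMT3A is one of the enzymes that add methyl groups to DNA that had none.

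Sequences from 3 windows show the size of the differences at single stretches of DNA. Each is the 250-base segment with the largest difference in its window, among those without an annotated exon and with at least 8 CpG dinucleotides read, for the genes whose window means were lower in OCI-AML3 by the most, IRX5 and NKX2-3, and the gene whose mean was higher by the most, TBX4. They were read from GRCh37 on the strand of the gene, 5′ to 3′, and capitals mark the CpG dinucleotides.
IRX5, chr16:54968527-54968776, + strand: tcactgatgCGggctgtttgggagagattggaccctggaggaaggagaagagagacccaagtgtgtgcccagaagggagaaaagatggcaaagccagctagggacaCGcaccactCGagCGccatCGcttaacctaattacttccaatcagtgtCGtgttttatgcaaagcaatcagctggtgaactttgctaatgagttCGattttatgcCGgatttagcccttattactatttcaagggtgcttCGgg
NKX2-3, chr10:101297199-101297448, + strand: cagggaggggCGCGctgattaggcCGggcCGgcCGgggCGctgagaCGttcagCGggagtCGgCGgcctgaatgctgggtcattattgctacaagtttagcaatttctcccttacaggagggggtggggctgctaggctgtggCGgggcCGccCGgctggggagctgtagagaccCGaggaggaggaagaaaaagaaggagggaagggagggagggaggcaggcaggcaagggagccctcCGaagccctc
TBX4, chr17:59531515-59531764, + strand: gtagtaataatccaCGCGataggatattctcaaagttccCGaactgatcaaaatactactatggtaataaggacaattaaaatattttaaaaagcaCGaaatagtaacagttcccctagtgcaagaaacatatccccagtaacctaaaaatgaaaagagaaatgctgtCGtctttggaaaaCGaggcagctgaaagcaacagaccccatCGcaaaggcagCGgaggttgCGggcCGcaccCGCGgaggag
In the IRX5 segment, 3750 to 3999 bp downstream of the TSS, OCI-AML3 had 0 methylated calls of 252, which allows a share of up to 1.19% (3 calls of 252; the Wilson 95% limit is 1.502%), and AML5 had 96.8% of 408 calls methylated (Wilson 95% CI 94.6–98.1%). All 9 CpG dinucleotides were between 93.0% and 100% in AML5. The NKX2-3 segment, which starts 4500 bp downstream, held 15 CpG dinucleotides, whose mean was 5.79% in OCI-AML3 but 93.9% in AML5. As a share of calls these were 10.3% (6.74–15.3%) and 94.0% (89.1–96.8%), and 1 CpG of OCI-AML3 was at 43.2%. The TBX4 segment, 1750 to 1999 bp downstream, went the other way, with a mean of 89.8% for OCI-AML3 against 21.8% for AML5 at 12 CpG dinucleotides.

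Over the whole windows, 30 of the 48 genes had a higher mean methylation level in OCI-AML3 and 18 a lower one. Among 19918 protein-coding genes measured the same way, 89.2% were lower in OCI-AML3, against 37.5% of the 48. The median difference between OCI-AML3 and AML5 was 3.95 percentage points over the 48 genes and −5.49 over all protein-coding genes. A window of 2 kb in place of 5 kb turned the sign of the former, to −0.132. Window means lay between 0.449% and 85.7% for OCI-AML3, a wider range than the 14.7% to 76.8% of AML5. A difference of over 20 percentage points was found in 6 genes. IRX5, NKX2-3 and TBX3 were lower in OCI-AML3 (6.25% of the genes, background 6.55%), and NKX6-2, IRX4 and TBX4 were higher (6.25%, background 0.969%). The share of lower genes was thus close to that of all protein-coding genes. These calls depend on the window. Within 2 kb, IRX5 and NKX2-3 were under 20 percentage points, at −17.0 and −6.66. TBX3 and DLX5 were lower by more, at −36.4 and −22.1. PAX3 and TBX15 were added to the higher genes at 2 kb, at 24.8 and 21.3. Within 10 kb, TBX3, IRX4 and NKX6-2 were under it, at −10.8, 16.7 and 13.7. In 32 of the 48 genes the difference was within 10 percentage points.

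**Figure D1:**
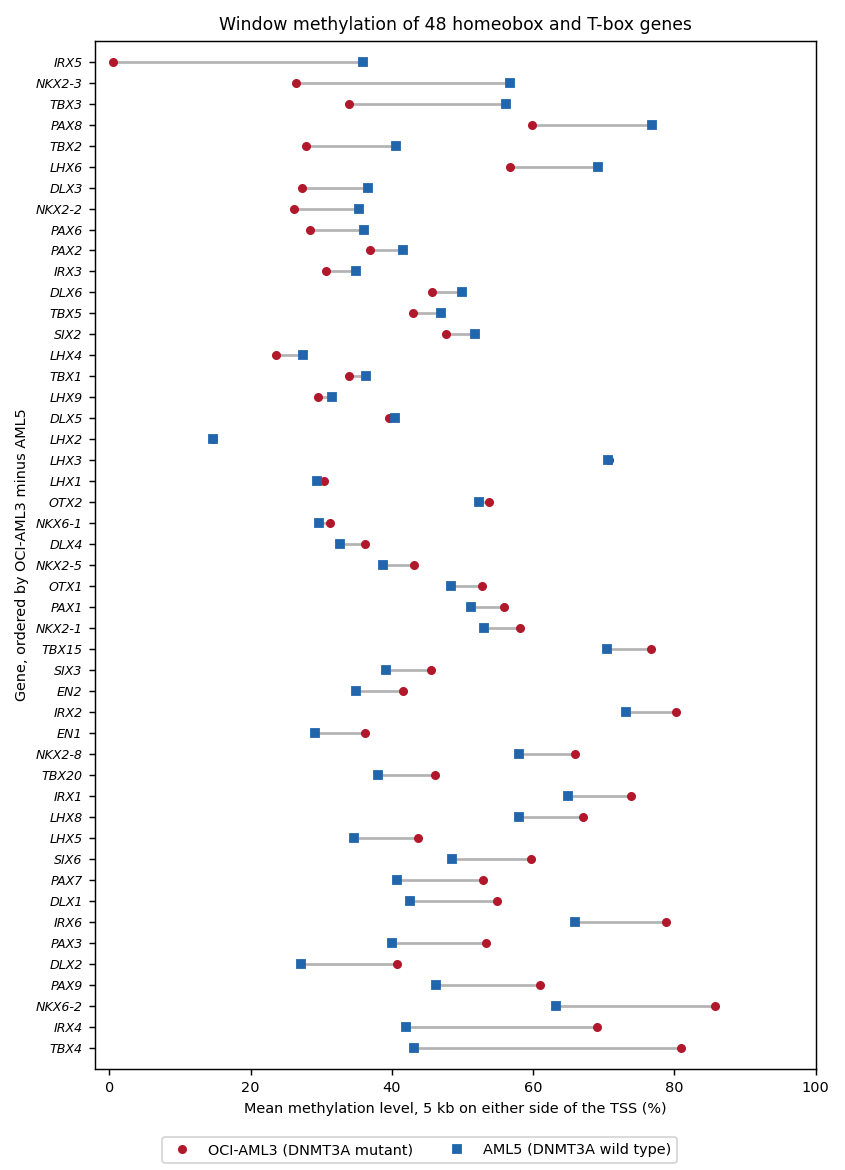
Mean methylation level (%) within 5 kb on either side of the TSS of each of the 48 genes, as a circle for OCI-AML3 and a square for AML5 joined by a line, with genes ordered by the difference. IRX5 at the top had 0.449% and 35.9%, TBX4 at the bottom 80.9% and 43.2%, and 30 genes had the circle to the right of the square, with the 2 symbols on top of each other in LHX2 (a difference of 0.00545 percentage points).

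The calls of each CpG dinucleotide were tested with Fisher's exact test, with Benjamini–Hochberg adjustment over the nuclear genome and a threshold of 0.05. In the member windows, 4374 CpG dinucleotides (20.1%) were called lower in OCI-AML3, where the background is 14.7%, and 5047 (23.2%) were called higher, where it is 3.86%. At least 1 CpG was called lower in all 48 genes and higher in 47, with IRX5 as the exception. This is a weak criterion, since each window held 197 to 827 tested CpG dinucleotides. More CpG dinucleotides were called higher than lower in 29 genes and the reverse in 19. These counts of genes were not made for all protein-coding genes, so they have no background. Depth differed between the lines in these windows, with 56.8 reads on average for each CpG of OCI-AML3 against 35.4 for AML5. The windows of all protein-coding genes had 47.2 and 36.9, and the genome-wide means were 36.2 and 35.3. Over the 48 windows the ratio of OCI-AML3 to AML5 depth was between 1.10 and 2.83, with a median of 1.41. The part of depth in the differences was not tested.

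The IRX genes belong to the Iroquois family, which patterns the neural tube, heart and limbs, and they held both the largest lower value and a large higher one. IRX5 (chr16:54959777-54969777, + strand) had a window mean of 0.449% in OCI-AML3 and 35.9% in AML5. The shares of calls were 0.352% (Wilson 95% CI 0.294–0.421%) and 36.4% (35.8–37.1%). Its start site itself did not carry the difference, since the 108 CpG dinucleotides within 500 bp of the TSS were at 0.0696% and 0.349%. The difference lay on both sides of the start, but within the window most CpG dinucleotides that differed were downstream, from 1000 bp onward. Upstream, the bin from −4000 to −3501 bp held 4, at 2.80% in OCI-AML3 and 66.1% in AML5. In OCI-AML3, the unbroken stretch around the TSS of 500 bp bins under 20%, bins with too few CpG dinucleotides passed over, ran from position 54956777 to 54971776, which is 15 kb and goes beyond the window. In AML5 it ran from 54961277 to 54965776, which is 4.5 kb, and its first bin was at 19.9%. The bin from −5000 to −4501 bp, which was passed over, had 45.7% in OCI-AML3 over 2 CpG dinucleotides. Counted within the window, with such bins ending the stretch as for the other genes below, it measured 9000 bp in OCI-AML3 and 4500 bp in AML5. Fisher's test called 246 of the 617 CpG dinucleotides of the window lower and 0 higher.

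IRX4 (chr5:1882350-1892350, − strand), which is known for its role in the heart ventricle, had 69.1% in OCI-AML3 and 42.0% in AML5. Of its 546 CpG dinucleotides, 291 were called higher in OCI-AML3 and 35 lower. The start of IRX4 had 84.5% and 50.3%, so start and window were higher together. IRX2 and IRX1, on the same arm of chromosome 5, had 80.3% and 73.9% in OCI-AML3 and 73.2% and 64.9% in AML5. These 3 windows were also read more deeply in OCI-AML3, by 2.83, 2.81 and 2.76 times the depth of AML5, and the part of that depth was not tested. IRX6 (chr16:55353115-55363115) had 78.8% and 65.99%, and its start 76.5% and 49.7%. IRX6 lies 393 kb from IRX5 and differed in the opposite direction. IRX3, 644 kb from IRX5 on the other side, had a window mean of 30.7% in OCI-AML3 and 34.9% in AML5, and a start at 0.181% and 15.6%.

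T-box genes encode the other class of DNA-binding protein in the list. TBX3 (chr12:115116980-115126980, − strand), which acts in limb and mammary development, had a window mean of 34.0% in OCI-AML3 and 56.1% in AML5, and its start, over 71 CpG dinucleotides, had 0.128% and 49.8%. The shares of calls over the window were 28.6% (Wilson 95% CI 27.9–29.2%) and 57.6% (56.7–58.6%). Of the 71 start CpG dinucleotides, 55 were called lower in OCI-AML3 and 0 higher. The low part of TBX3 ended within the window, since the bin from 4500 to 4999 bp downstream had 94.5% in OCI-AML3 and 55.4% in AML5. TBX2 and TBX4 lie 52.6 kb apart on chromosome 17 and differed in opposite directions. TBX2 (chr17:59472204-59482204) had 27.8% in OCI-AML3 and 40.6% in AML5, and its start 8.87% and 36.6%. TBX4 (chr17:59524765-59534765), a hindlimb gene, had 80.9% in OCI-AML3 and 43.2% in AML5, with 257 of 396 CpG dinucleotides called higher and 32 lower. The shares of its calls were 83.1% (Wilson 95% CI 82.7–83.5%) and 42.1% (41.3–42.9%). The start of TBX4 had means of 44.7% and 47.5%, which averaged over opposite differences. Upstream, from −500 to −1 bp, OCI-AML3 was higher, with 50.1% against 33.0%, and from 0 to 499 bp it was lower, with 38.1% against 62.6%. Depth at TBX2 and TBX4 in OCI-AML3 was 2.17 and 2.09 times that of AML5, and its part was not tested. TBX5, the forelimb and heart gene, had 42.9% and 46.9%, TBX1 of the pharyngeal arches 34.0% and 36.4%, TBX15 76.8% and 70.5%, and the heart gene TBX20 46.1% and 38.0%.

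**Figure D2:**
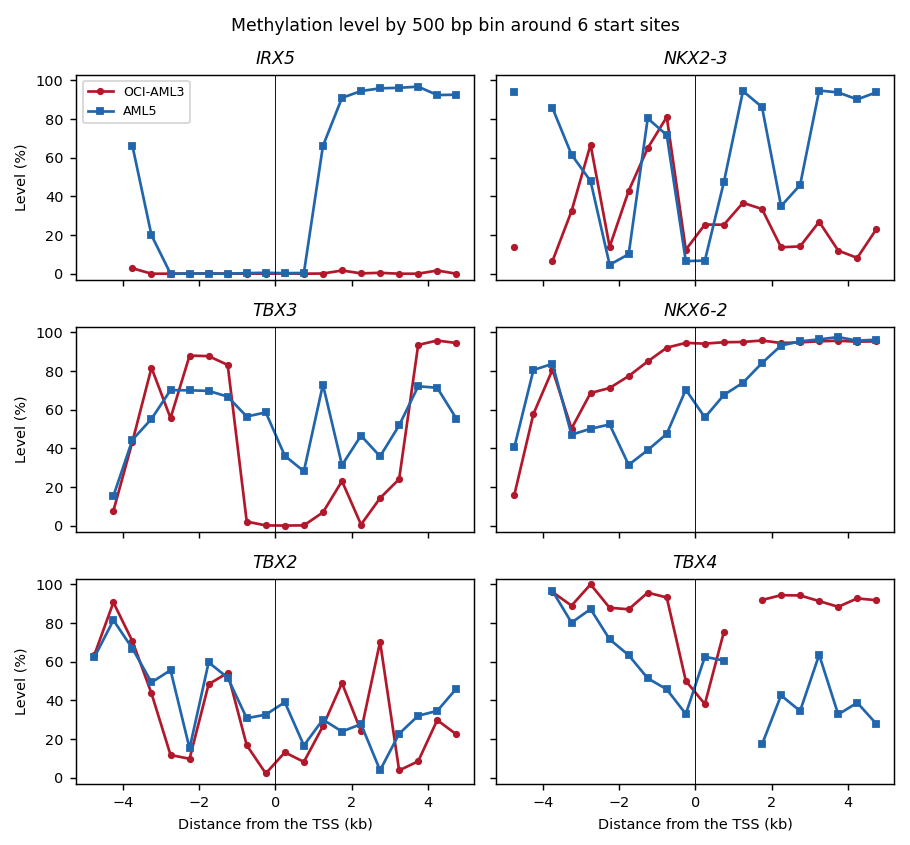
Methylation level (%) of 500 bp bins with at least 3 CpG dinucleotides against distance from the TSS (kb, downstream positive) for IRX5, NKX2-3, TBX3, NKX6-2, TBX2 and TBX4, with circles for OCI-AML3 and squares for AML5. In IRX5 both lines were near 0 at the start and only AML5 was above 90% at 4 kb downstream, in TBX3 only OCI-AML3 was near 0 at the start, and TBX2 and TBX4 differed in opposite directions.

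The NKX genes carry an NK-type homeobox. NKX2-3 (chr10:101287699-101297699, + strand), which is needed for the spleen and gut, had 26.4% in OCI-AML3 and 56.7% in AML5, with 267 of 519 CpG dinucleotides called lower and 60 higher. The shares of its calls were 26.9% (Wilson 95% CI 26.4–27.5%) and 55.8% (55.1–56.5%). Its start had 19.7% and 6.65%, the opposite order. NKX2-2 (chr20:21489702-21499702), a gene of the ventral neural tube and pancreas, had 26.1% and 35.4%. Its start was at 4.68% in OCI-AML3 but 50.1% in AML5, and 39 of its 55 CpG dinucleotides were called lower. NKX6-2 (chr10:134594651-134604651), known from oligodendrocytes, had the highest window mean of the 48 genes in OCI-AML3, at 85.7%, and 63.2% in AML5. In NKX6-2, 340 of 827 CpG dinucleotides were called higher and 26 lower, and its start had 94.4% and 62.5%. The window of NKX2-5, the cardiac homeobox gene, had 43.1% in OCI-AML3 and 38.7% in AML5, with 63.6% and 41.0% at the start. NKX2-1 of lung and thyroid had 58.1% and 53.1%, NKX2-8 65.99% and 58.1%, and the beta-cell gene NKX6-1 31.2% and 29.6%. On chromosome 14, NKX2-8 lies 61.5 kb from NKX2-1 and 74.95 kb from PAX9, and all 3 were higher in OCI-AML3.

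The PAX genes encode paired-box proteins. PAX8 (chr2:114031498-114041498), a thyroid and kidney gene, had 59.9% in OCI-AML3 and 76.8% in AML5, although its start was methylated in both, at 89.5% and 90.8%. PAX6, the eye gene, had a window mean of 28.4% and 35.99%, and PAX2 of kidney and eye 36.97% and 41.6%. PAX9 (chr14:37121773-37131773), a tooth and skeletal gene, had 60.9% in OCI-AML3 and 46.3% in AML5. PAX3 of the neural crest and muscle had 53.3% and 40.0%, and its start 78.2% and 53.0%. The remaining 2 were also higher in OCI-AML3: PAX7 had 52.9% and 40.8%, and PAX1 55.9% and 51.2%. Of the 7 PAX genes, 4 were thus higher and 3 lower, all by less than 20 percentage points.

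The LIM-homeobox genes, which act in brain, pituitary and gonads, had a median difference of 0.111 percentage points. LHX2 had 14.7% in each line, LHX3 had 70.8% in OCI-AML3 and 70.6% in AML5, and LHX1 had 30.4% and 29.4%. Equal means did not mean equal profiles. In LHX1, 116 of 580 CpG dinucleotides were called lower in OCI-AML3 and 110 higher. LHX6 (chr9:124986905-124996905), a gene of forebrain interneurons, was the LHX gene with the largest difference, with 56.8% in OCI-AML3 and 69.3% in AML5. LHX4 had 23.5% and 27.4%, and LHX9 29.5% and 31.5%. LHX5 had 43.7% and 34.6%, and LHX8 67.04% and 57.99%. The LHX2 value rests on the TSS chosen, since around the TSS of its canonical transcript, 10098 bp away, the difference was −19.1 percentage points.

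The DLX genes, which shape face, limbs and forebrain, lie in pairs. At DLX6, DLX5 and DLX1 the start was lower in OCI-AML3 by over 20 percentage points although the window was not. The window of DLX6 had 45.8% in OCI-AML3 and 49.96% in AML5, but its start had 1.55% and 40.02%. DLX5, 19.4 kb away, had 39.5% and 40.5% over the window and 9.65% and 41.5% at the start. Depth at DLX6 and DLX5 in OCI-AML3 was 2.00 and 1.83 times that of AML5, and its part was not tested. DLX1 had 54.9% and 42.6% over the window and 0.855% and 21.01% at the start, where 39 of 75 CpG dinucleotides were called lower and 0 higher. Beyond the start, DLX1 differed in both directions, with 0.769% and 31.6% from 1000 to 1499 bp and 87.9% and 27.4% from 2000 to 2499 bp. DLX2, 18.2 kb from DLX1, had 40.7% and 27.1% over the window, with a start near 0 in both lines, at 0.174% and 2.17%. The bin of DLX2 from 2500 to 2999 bp downstream had 91.2% in OCI-AML3 and 15.9% in AML5. DLX3 (chr17:48067588-48077588) had 27.2% and 36.7%, while its neighbor DLX4 had 36.2% and 32.7%.

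SIX2, SIX3, SIX6 and the EN and OTX genes pattern the eye and brain. SIX2, which is also active in the kidney, had 47.7% in OCI-AML3 and 51.7% in AML5, and its start had 16.4% and 57.2%, with 75 of 107 CpG dinucleotides called lower and 0 higher. SIX3, 67.8 kb away, had 45.6% and 39.2%. SIX6 had 59.6% and 48.5% over the window and 68.8% and 47.99% at the start. EN1, an engrailed gene of the midbrain and hindbrain, had 36.2% and 29.1%, and its start 46.4% and 24.3%. EN2 had 41.6% and 34.9% over the window, where depth in OCI-AML3 was 2.30 times that of AML5 and its part was not tested. OTX1 had 52.8% and 48.3%, and OTX2 53.8% and 52.4%.

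Within 500 bp of the TSS, called the start here, the level differed by over 20 percentage points in 14 genes. In OCI-AML3 the start was lower in TBX3, NKX2-2, SIX2, DLX6, DLX5, TBX2 and DLX1 (14.6% of the 48, background 11.7%). It was higher in IRX4, NKX6-2, IRX6, PAX3, NKX2-5, EN1 and SIX6 (14.6%, background 3.35%). The 7 starts that were lower had 0.128% to 16.4% in OCI-AML3 and 21.01% to 57.2% in AML5, so that each was under 20% in OCI-AML3 and above it in AML5. The 7 that were higher had 46.4% to 94.4% in OCI-AML3 and 24.3% to 62.5% in AML5, so that none was free of methylation in either line. Fisher's test called 36 of 46 start CpG dinucleotides of DLX6 lower, 31 of 47 of DLX5 and 59 of 118 of TBX2. It called 73 of 119 higher in IRX4, 75 of 154 in NKX6-2, 33 of 73 in IRX6, 29 of 62 in PAX3, 26 of 53 in NKX2-5, 23 of 68 in EN1 and 33 of 75 in SIX6. Both lines were under 20% at 10 of the 48 starts (20.8%, background 52.3%), OCI-AML3 alone at 10 and AML5 alone at 1, which was LHX1. In 6 genes both lines were above 66%. Apart from starts under 20% in both lines, these classes were not counted over all protein-coding genes. The median start of all protein-coding genes was also lower in OCI-AML3, at 7.76% against 14.0% in AML5. The start and the window differed in opposite directions in 18 genes.

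The choice of TSS mattered for some starts. The TSS used was the first base of the outermost transcript, and in 26 genes the canonical transcript starts at the same base, whereas in 9 it starts over 4000 bp away. In PAX2, the start at the most upstream base had 57.4% in OCI-AML3 and 50.2% in AML5, but that of the canonical transcript had 5.31% and 32.2%. In LHX2 the values were 36.1% and 22.6% at the most upstream base and 3.49% and 28.7% at the canonical start. PAX6 turned in the same way, from 54.2% and 43.6% to 29.5% and 37.8%. With canonical starts, 9 genes were lower and 7 higher by over 20 percentage points. DLX1, at −13.6, and NKX2-5, at 19.4, were no longer among them, and LHX2, OTX1, PAX2 and OTX2 were added.

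**Figure D3:**
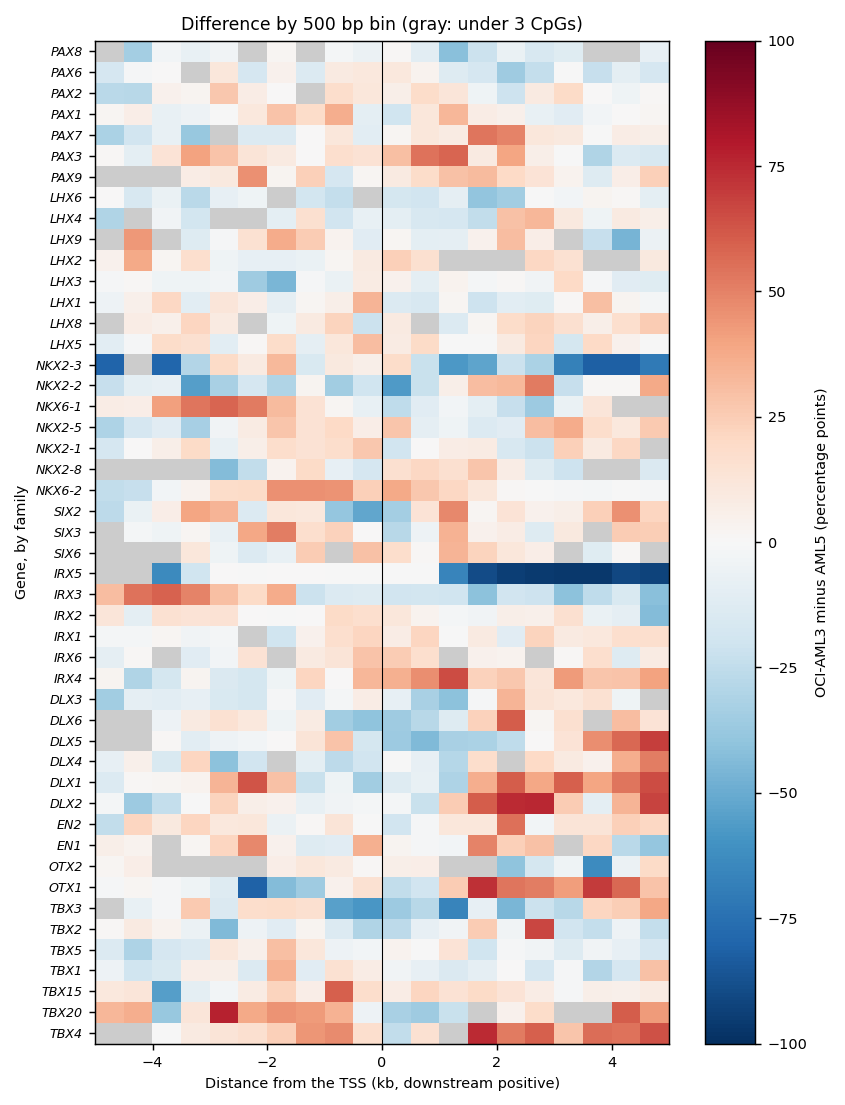
Difference in methylation level (OCI-AML3 minus AML5, percentage points, color) in 500 bp bins from 5 kb upstream to 5 kb downstream of the TSS, 1 row per gene grouped by family, with gray for bins of under 3 CpG dinucleotides. In 36 of the 48 rows both a bin lower by over 20 percentage points (blue) and a bin higher by over 20 (red) occur.

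Within the windows, 885 of the 960 bins of 500 bp had at least 3 CpG dinucleotides. OCI-AML3 was lower by over 20 percentage points in 129 of them (14.6%, background 16.6%) and higher in 183 (20.7%, background 2.55%). Bins of both kinds occurred in 36 genes (75%, background 15.7%), whose window means averaged over opposite differences. A level over 66% in AML5 and under 20% in OCI-AML3 was found in 16 bins (1.81%, background 1.28%), and the reverse in 10 (1.13%, background 0.138%). All 9 bins of IRX5 that were lower by over 20 percentage points were among the 16, and NKX2-3 held most of the rest. The share of 1.81% thus rests mainly on IRX5 and NKX2-3 and does not describe the genes as a set. The 10 reverse bins were spread over more genes. The largest difference of a bin was in IRX5 from 3500 to 3999 bp downstream, where OCI-AML3 had 0% over 11 CpG dinucleotides and AML5 had 96.7%.

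The lines also differed in how many bins had intermediate levels. Between 20% and 66%, AML5 had 532 of the 885 bins (60.1%) and OCI-AML3 had 356 (40.2%). OCI-AML3 had more bins under 20%, 206 against 133 (23.3% and 15.0%). So had all protein-coding windows, with 19.4% in OCI-AML3 and 15.0% in AML5. It also had more bins over 66%, 323 against 220 (36.5% and 24.9%). Here all protein-coding windows had the opposite order, with 60.2% in OCI-AML3 and 70.5% in AML5. Of the 532 intermediate bins in AML5, 105 were under 20% in OCI-AML3 and 151 over 66%. In the bins of all protein-coding windows the order of the intermediate class was the opposite, with 14.5% in AML5 and 20.4% in OCI-AML3. Single CpG dinucleotides of the 48 windows had the same order as the bins, with 36.98% intermediate in AML5 and 25.5% in OCI-AML3. In all protein-coding windows the lines were close, with 11.5% of single CpG dinucleotides intermediate in AML5 and 12.2% in OCI-AML3. A mean between 20% and 66% does not tell cells that differ from one another apart from alleles or neighboring CpG dinucleotides that differ.

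**Figure D4:**
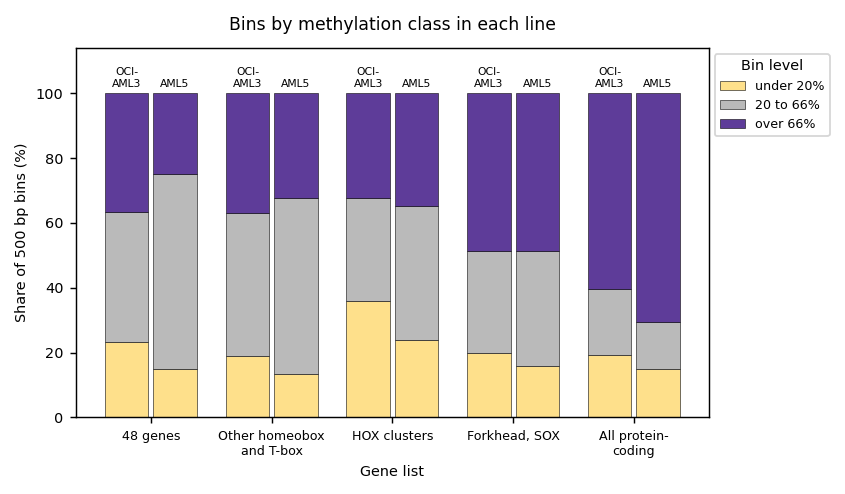
Share (%) of 500 bp bins with a methylation level under 20%, from 20 to 66% and over 66%, in OCI-AML3 (left bar) and AML5 (right bar) for the 48 genes and for 4 other gene lists. The gray intermediate part is 40.2% and 60.1% for the 48 genes and 20.4% and 14.5% for all protein-coding genes.

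By distance from the TSS, the mean level of the 48 genes was lowest near the start and did not reach that of other genes on the flanks. In the bin from 0 to 499 bp downstream it was 37.9% in OCI-AML3 and 41.8% in AML5, compared with 26.1% and 30.3% for all protein-coding genes. In the bin from 4500 to 4999 bp it was 55.7% and 47.7%, compared with 76.0% and 83.5%. The 48 genes were therefore more methylated than others at the start and less so in the flanks, in both lines. In that last bin 17 of 44 genes were higher in OCI-AML3 by over 20 percentage points (38.6%, background 1.84%) and 6 were lower (13.6%, background 14.3%). In the first bin, from −5000 to −4501 bp, 2 of 36 were higher (5.56%, background 1.56%) and 10 lower (27.8%, background 16.2%). Bins with at least 25 CpG dinucleotides had a median difference of 1.03 percentage points over 404 bins (background −0.207). Sparser bins had 1.95 over 481 (background −4.84). The dense bins spread widely, with quartiles of −14.0 and 17.2 (background −4.52 and 0.0858). Of the dense bins, 18.1% were lower by over 20 percentage points (background 9.19%) and 21.3% higher (background 4.92%). Of the sparser bins, 11.6% were lower (background 17.8%) and 20.2% higher (background 2.16%).

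**Figure D5:**
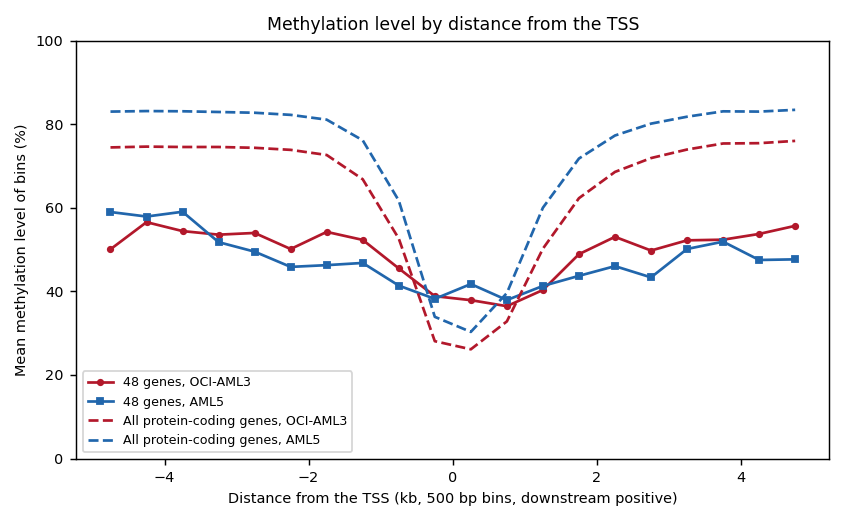
Mean methylation level (%) of 500 bp bins against distance from the TSS (kb, downstream positive), with solid lines for the 48 genes, dashed lines for all protein-coding genes, and color for the line. The solid lines stay between 36.5% and 59.1%, and the dashed lines dip to 26.1% in OCI-AML3 and 30.3% in AML5 at the start and reach 76.0% and 83.5% downstream.

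A stretch under 20% at the start, counted in unbroken 500 bp bins, was present in 22 genes in OCI-AML3 and in 15 in AML5, and in 14 of them in both. It was longer in OCI-AML3 in 18 genes (37.5%, background 30%) and shorter in 3 (6.25%, background 5.45%), shares near those of all protein-coding genes. In IRX3 it measured at least 6000 bp in OCI-AML3, where it reached the edge of the window. In AML5 it measured 2000 bp there and ended at a bin of 20.02%. DLX3 had 3500 and 1000 bp, and NKX6-1 3500 and 500 bp. These lengths depend on bins not far over the limit. In AML5 the DLX3 stretch ended at bins of 22.6% and 24.1%. That of NKX6-1 ended downstream at a bin of 25.7%, beyond which the bins from 500 to 1999 bp had 2.50% to 11.6%. A stretch was present only in OCI-AML3 in 8 genes, among them TBX3, NKX2-2 and DLX6 with 2500 bp each. Presence of a stretch was not counted over all protein-coding genes, so the counts of 22, 15 and 8 have no background.

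Other developmental genes were measured in the same way. Of 77 further homeobox and T-box genes, 41 had a higher window mean in OCI-AML3 and 36 a lower one, with a median difference of 1.36 percentage points. Over 20 percentage points, 3 were lower (TBX10, UNCX and PAX4) and 4 higher (BARHL2, LBX1, EVX2 and MEOX2). Among the 39 HOX cluster genes, 8 were lower and 5 higher by over 20 percentage points, with a median of −0.610, and among 69 forkhead and SOX genes 2 were lower and 2 higher, with a median of −2.50. The 28 Polycomb genes, which encode the proteins that keep such developmental genes inactive, had a median of −5.28 percentage points, 27 of them lower and 0 by over 20 in either direction, where the median of all protein-coding genes was −5.49 and 89.2% were lower. The intermediate class made up 54.3% of the bins in AML5 and 44.3% in OCI-AML3 for the further homeobox and T-box genes, and 41.2% and 31.7% for the HOX genes. For forkhead and SOX genes it made up 35.5% and 31.6%. These lists are set side by side without a test of the difference between them.

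Neighboring genes did not always differ in the same direction. Of 16 pairs of adjacent members less than 2000 kb apart, 9 differed in the same direction and 7 in opposite ones. Among the 7, the pair LHX6 and LHX2 rests on an LHX2 difference of 0.00545 percentage points. Adjacent genes in general were not counted, so these numbers have no background. TBX2 and TBX4 were the pair with the widest contrast, at −12.7 and 37.8 percentage points, followed by IRX5 and IRX6 at −35.5 and 12.8. The 3 PAX and NKX genes of chromosome 14 and the 3 IRX genes of chromosome 5 were higher together.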

How the data were processed

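Genomic DNA of OCI-AML3 and AML5 (1 library each) was bisulfite converted and sequenced with paired-end reads. Alignment to hg19 and calling were done by the authors with Bismark, and the submitters' processing notes also name Bowtie 0.12.8. The deposited tables give, for every CpG dinucleotide, a count of methylated and a count of unmethylated calls, with both strands on 1 line and no normalization. Duplicate removal is not given in the sources used here. The mitochondrial genome, with 0.168% and 0.101% of calls methylated, showed which column held methylated calls. Each table listed 28217448 CpG dinucleotides. Read as 1 base after the cytosine, 28162537 of 28217009 nuclear positions fell on a CpG of the GRCh37 sequence used here.

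Levels were averaged over the CpG dinucleotides that exceeded 5 reads in each library, within 5 kb of the most upstream TSS of a GENCODE annotation lifted to GRCh37. Bins needed at least 3 and windows of the background at least 10 CpG dinucleotides. Calls at each CpG dinucleotide were tested with Fisher's exact test (two-sided), adjusted after Benjamini and Hochberg over the nuclear genome with a threshold of 0.05. The computation was tested on simulated data. Wilson 95% intervals cover counting error only and treat calls as independent, whereas neighboring calls can come from 1 read. At the median depth of 27 and 30 calls, a single CpG without a methylated call allows a share of up to 11.1% and 10.0% (3 calls). Full values were given for the 10 genes with the most negative and the 5 with the most positive window difference, all with a start-site difference of over 20 percentage points, and the 3 with the smallest difference. The members, lists and tests were chosen with earlier results of these data known. Alternatives covered depth, averaging, TSS, window and thresholds. The calculations used scipy 1.17.1, numba 0.67.0, numpy 2.4.6 and pandas 2.3.3 in Python 3.11.15, and plots used matplotlib 3.10.9. Further lists were other homeobox and T-box, HOX, forkhead and SOX, and Polycomb genes, and markers of blood and other cells. 1 marker gene and 1 sequence are not reported here.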

Additional observations from a re-analysis of the deposited data

How the results depend on the processing

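With 1 library per line, no alternative can show the spread between cultures. No paired analysis was possible because there are no replicates. Of the recomputed values, 26 kept within their limits of sampling error or 1.5 times the count, 24 moved and 2 changed sign. The number of genes lower in OCI-AML3 became 6 at a threshold of 10 percentage points. The number of higher genes became 10 at that threshold, 1 at 30, 5 with a 2 kb window and 1 with a 10 kb window. The median difference was 4.26 percentage points with at least 10 reads, 3.78 with pooled calls, 5.00 with canonical TSSs, 2.79 at 10 kb and −0.132 at 2 kb, where its sign turned. Bins of AML5 under 10% numbered 63, and those of OCI-AML3 141. The median of dense bins was 1.21 with at least 10 reads, 1.98 with pooled calls, 1.32 with canonical TSSs, and turned to −0.181 when dense meant 35 CpG dinucleotides. That of sparse bins was 2.28 with pooled calls and 0.973 with canonical TSSs. Start sites that differed numbered 28 at 10 percentage points and 7 at 30. The share of CpG dinucleotides called lower was 16.8% at an adjusted threshold of 0.01, 18.7% with a difference of over 20 percentage points and 18.2% at 10 kb. The share called higher was 19.6% at 0.01, 23.8% with at least 10 reads, 21.5% at 2 kb and 22.2% at 10 kb. The cause was not tested.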

Other observations

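A few windows held sharply opposite differences that their means hide. They were chosen after their values were seen. In OTX1, a forebrain gene, the bin from −2500 to −2001 bp had 10.4% for OCI-AML3 against 91.2% for AML5, whereas the bin from 1500 to 1999 bp had 82.4% and 9.64%. In TBX20 the bin from −4000 to −3501 bp had 13.6% and 51.5%, and the bin from −3000 to −2501 bp 91.7% and 14.3%. In IRX3 the bin from −4000 to −3501 bp had 94.98% and 35.8%, and the bin from 4500 to 4999 bp 15.0% and 56.4%. In NKX6-1 the bin from −3000 to −2501 bp had 89.8% and 31.6%, and the bin from 2500 to 2999 bp 0.139% and 36.1%.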
